A study of Mus musculus with 6 samples.

Results

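The 7 noncoding RNAs described here are Malat1, Neat1, Kcnq1ot1, Gas5, Snhg1, Snhg12 and Rn45s, taken by symbol from a table of read counts for 14788 gene symbols. All 7 passed the filter on low counts, as did 11504 of the 14788 symbols. They are not simply the most counted noncoding RNAs. Among genes that RefSeq classes as lncRNA, Snhg12 ranked 72 by mean count scaled to library size. Xist, which ranked 2, is not a member. The members were selected on their read counts in these libraries, so their levels are a description and carry no test. The shares of Malat1 and Rn45s by genotype were known as well, so their differences between genotypes also carry no test. The libraries came from type-2 conventional dendritic cells (cDC2s), antigen-presenting cells specialised in priming helper T cells, taken from C57BL/6 spleens. There were 3 libraries from Arhgef1-/- cells (KO) and 3 from WT cells. Arhgef1 encodes an exchange factor that activates the GTPase RhoA. The labels give no treatment, age or sorting scheme, and do not say whether the deletion was confined to any cell type or whether the replicates were separate animals. The spread behind each p-value is therefore that among these libraries and may be technical.

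Malat1 and Neat1 are neighbouring nuclear long noncoding RNAs. Malat1 collects in nuclear speckles, where splicing factors are stored, and the long form of Neat1 is the scaffold of paraspeckles, nuclear bodies that hold RNA-binding proteins such as Sfpq and Nono. Neither long transcript needs a poly(A) tail: RNase P cuts the primary transcript ahead of a tRNA-like structure, and U-rich stretches near the new end fold with an A-rich tract into a triple helix that protects it. Gas5, Snhg1 and Snhg12 are host genes of small nucleolar RNAs (snoRNAs), which lie in their introns and guide chemical modification of other RNAs, mostly ribosomal RNA. Spliced Gas5 is normally degraded when it is translated, and it was named for its accumulation in growth-arrested mouse cells. Kcnq1ot1 is an imprinted antisense RNA, made from the paternal chromosome, that silences neighbouring genes. Rn45s is the precursor of the 18S, 5.8S and 28S ribosomal RNAs.

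The 3′ segments of Malat1 and Neat1 are shown because they carry the letters that both RNAs share at the end where each is protected. They were read from GENCODE vM21 transcripts (mm10, minus strand). The Malat1 segment is chr19:5795982-5796091 and the Neat1 segment is chr19:5824708-5824817. Capitals mark the 3 runs of at least 10 letters that the last 400 bases of both transcripts share, TTTCTTTTCCTGA, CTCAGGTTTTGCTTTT and AAAAAGCAAAA. The runs come in the same order in both RNAs, U-rich first and A-rich last.
Malat1: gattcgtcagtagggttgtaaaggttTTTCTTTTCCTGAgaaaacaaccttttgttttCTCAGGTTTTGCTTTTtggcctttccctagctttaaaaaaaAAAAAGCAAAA
Neat1: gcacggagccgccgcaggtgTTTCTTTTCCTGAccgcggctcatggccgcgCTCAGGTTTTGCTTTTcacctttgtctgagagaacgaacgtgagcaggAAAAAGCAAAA

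Read on the transcript strand only, the first run occurred in 0.0254% of 138029 transcripts and the third in 0.448%. The second occurred in 2 transcripts, 1 of Malat1 and 1 of Neat1, the pair in which the runs were found. The Malat1 segment ends 292 bases before the end of the annotated transcript, and the Neat1 segment ends with it. The stretches between the capitals differ between the RNAs.

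A snoRNA from within Gas5 and one from within Snhg12 are shown because each has counts of its own in the table. They were also read from GENCODE vM21 (mm10, plus strand). Snord47 is chr1:161038082-161038158 and Snord99 is chr4:132310691-132310764. Capitals mark the C box (TGATGA) and the D box (CTGA), the paired motifs that bind the core proteins of box C/D snoRNAs.
Snord47: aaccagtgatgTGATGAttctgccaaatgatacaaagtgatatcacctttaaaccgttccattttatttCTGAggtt
Snord99: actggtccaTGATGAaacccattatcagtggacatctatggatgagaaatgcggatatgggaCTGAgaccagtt

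The starts of the host genes are shown because snoRNA host genes, like ribosomal protein genes, often begin within a run of C and T. These windows run from 30 bases before to 40 bases after starts annotated by RefSeq (GRCm38.p6, plus strand). Capitals mark the longest unbroken run of C and T from 5 bases before to 15 bases after the start. The Gas5 windows are chr1:161034571-161034640 and chr1:161035136-161035205, the Snhg1 window is chr19:8723457-8723526 and the Snhg12 window is chr4:132308648-132308717.
Gas5, first start: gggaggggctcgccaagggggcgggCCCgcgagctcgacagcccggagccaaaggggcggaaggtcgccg
Gas5, second start: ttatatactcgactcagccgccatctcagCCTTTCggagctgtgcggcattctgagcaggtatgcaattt
Snhg1: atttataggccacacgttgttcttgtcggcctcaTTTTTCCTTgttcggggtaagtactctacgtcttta
Snhg12: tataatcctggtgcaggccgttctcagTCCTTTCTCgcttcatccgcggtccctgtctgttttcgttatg

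The run was 9 bases long in Snhg1 and in Snhg12, a length reached by 4.21% of 32851 RefSeq starts. It was 3 bases at the first Gas5 start and 6 at the second, lengths reached by 77.2% and 17.6% of starts. The median was 5 bases over 74 starts of ribosomal protein genes and 4 over all starts.

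Total counts were 8408325 to 11714365 in KO libraries and 8546267 to 10702215 in WT libraries. The targeted gene, Arhgef1, averaged 129 ± 14.8 CPM (counts scaled to library size) in KO libraries and 284 ± 35.6 CPM in WT libraries (SD, n = 3 each). Of 12 cDC2 marker genes, Clec10a had at most 11 counts in any library and was not tested. Of the 11 tested, 6 were lower in KO, 5 did not pass and none was higher, against 4.58% of all tested genes lower. The lower ones included Cd209a (log2 fold change -1.59), Cd4 (-0.67), H2-Ab1 (-0.30) and H2-Aa (-0.28). The summed share of the 12 markers was 1.51% to 1.59% of counts in KO libraries against 1.76% to 1.98% in WT libraries. Most of it came from H2-Ab1 and H2-Aa, at 7612 and 5863 CPM on average over the 6 libraries, against at most 1466 CPM for Itgax. This sum moved in the same direction as the Malat1 and Neat1 differences given below. Per the labels, all KO libraries carry one lane and run name and all WT libraries another, so lane, run name and genotype cannot be told apart. Macrophage markers moved with genotype: 14 of 15 were lower in KO, and their summed share was 0.0291% to 0.0467% of counts in KO libraries against 0.0793% to 0.122% in WT libraries. Of 4 tested monocyte markers, 3 were lower in KO, Csf1r, Lyz2 and Plac8, with a summed share of 0.0273% to 0.0370% in KO libraries against 0.0425% to 0.0613% in WT libraries. Of 5 tested cDC1 markers, Cadm1 was lower, and no tested marker of plasmacytoid, B, T, NK, neutrophil, erythroid or stromal cells passed; the stromal marker Col1a1 had 0 counts in all 6 libraries. The 20 cell cycle genes were listed with earlier results of these data known, so their count is a description. All 20 were higher in KO, against 5.09% of all tested genes. Their summed share was 0.412% to 0.478% in KO libraries against 0.197% to 0.230% in WT libraries. In bulk samples, fewer cells of a type and less RNA per cell cannot be told apart. The part of these shifts in the differences given below was not tested.

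Read numbers differed widely among the members. By mean CPM over the 6 libraries, which does not allow for length, Rn45s ranked 1 and Malat1 ranked 2 of all genes, Neat1 115, Gas5 316, Kcnq1ot1 381, Snhg1 2733 and Snhg12 7015. Together the 7 took 6.42% to 6.90% of counts in KO libraries and 7.66% to 8.69% in WT libraries. Among genes that RefSeq classes as lncRNA, Malat1 ranked 1, Neat1 3, Gas5 4, Kcnq1ot1 5, Snhg1 14 and Snhg12 72. The second was Xist, the RNA that coats the inactive X chromosome.

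Scaled by the summed length of annotated exons, the order changed. Malat1 had a level of 3540 ± 352 CPM per kilobase in KO and 5799 ± 627 in WT. Gas5 came next with 121 ± 6.12 CPM per kilobase in KO and 123 ± 6.25 in WT. Neat1, whose annotated transcript is 20771 bases long, had 33.7 ± 1.56 CPM per kilobase in KO and 43.3 ± 3.90 in WT. Snhg1 had 28.7 ± 1.45 in KO and 22.7 ± 1.71 in WT, so the order of Neat1 and Snhg1 held in both genotypes. Snhg12 had 6.69 ± 0.817 in KO and 6.55 ± 0.896 in WT, and Kcnq1ot1, at 93092 bases, had 4.20 ± 0.434 in KO and 4.73 ± 0.619 in WT (SD, n = 3 each). With these lengths, every neighbouring pair in this order was separated by more than these SDs. The annotated exons of Snhg1 and Snhg12 together cover the whole gene, 2969 and 2402 bases. Their length therefore includes bases that some transcripts splice out, and a shorter length would raise their levels. Whether Neat1 and Snhg1 stay apart in each genotype with a shorter length was not tested. Rn45s was given no length here. Reads of the short and long forms of Neat1 share 1 count, so a level per kilobase of the long transcript is not a level of either form.

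Malat1 (ENSMUSG00000092341.3, chr19:5795690-5802672, minus strand) was lower in KO. Its counts were 219366, 212333 and 312828 in KO replicates 1, 2 and 3, against 473674, 340502 and 312849 in WT replicates 1, 2 and 3. Scaled for library size, these were 25535, 21960 and 26672 CPM in KO and 45373, 39206 and 36903 CPM in WT. KO replicate 2 was the lowest library and WT replicate 1 the highest, and the genotypes did not overlap. Malat1, Neat1 and Snhg1 were the 3 of 7 members without overlap, against 27.2% of all tested genes, and the values of Malat1 were known when it was chosen. The mean was 24722 ± 2459 CPM in KO and 40494 ± 4380 CPM in WT (SD, n = 3 each). The log2 fold change was -0.71 ± 0.07 (SE), which puts KO at 61.1% of WT.

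As a share of all counts, Malat1 took 2.61%, 2.21% and 2.67% in KO replicates 1, 2 and 3, against 4.43%, 3.90% and 3.66% in WT replicates 1, 2 and 3. The mean share was 2.50% ± 0.248 in KO and 3.996% ± 0.391 in WT (SD, n = 3 each). Malat1 was the most counted gene in WT replicates 1 and 2, and the second most counted, after Rn45s, in WT replicate 3 and in all KO libraries. Counting error of Malat1 was 0.145% to 0.217% of its count, while the coefficient of variation between replicates was 9.94% in KO and 10.8% in WT.

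**Figure D1:**
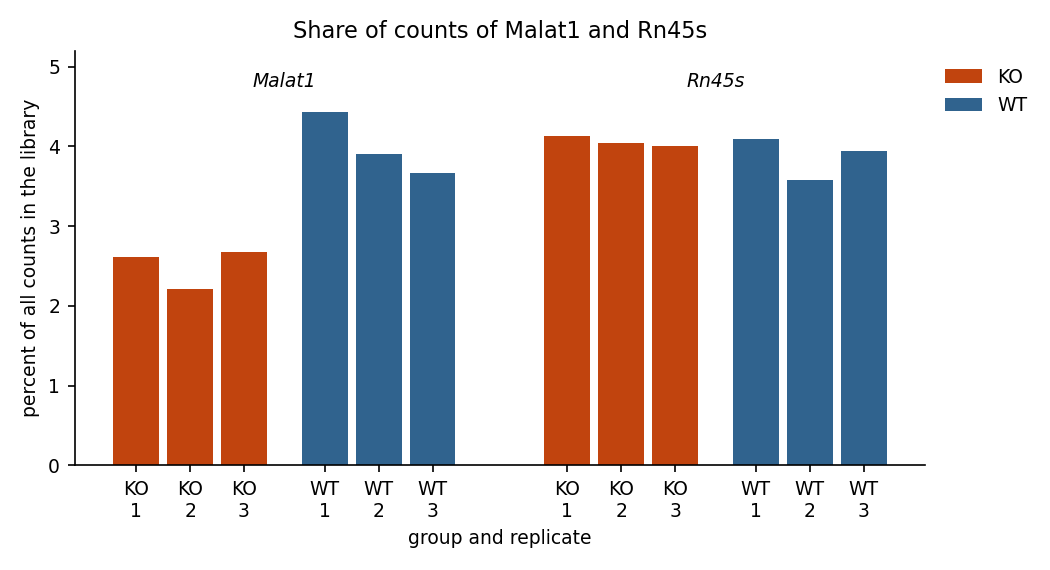
Share of all counts (percent, vertical axis, from 0) taken by Malat1 and Rn45s in each library, KO left of WT. Malat1 bars run from 2.21% to 2.67% in KO and from 3.66% to 4.43% in WT, while Rn45s bars run from 4.01% to 4.13% in KO and from 3.58% to 4.09% in WT.

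Rn45s had 40470, 40086 and 40067 CPM in KO replicates 1, 2 and 3, against 41909, 35951 and 39702 CPM in WT replicates 1, 2 and 3. The KO values lay inside the range of the WT values. The mean was 40207 ± 227 CPM in KO and 39187 ± 3012 CPM in WT (SD, n = 3 each), with a log2 fold change of 0.04 ± 0.05 (SE). Because ribosomal RNA genes are repeated and the symbol covers precursor and mature sequences, these counts do not separate ribosomal RNA synthesis from ribosomal RNA carried into the library. Within a library, the ratio of Rn45s to Malat1 counts averaged 1.64 ± 0.168 in KO and 0.972 ± 0.0899 in WT (SD, n = 3 each).

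Neat1 (ENSMUSG00000092274.3, chr19:5824708-5845478, minus strand) lies 22035 bases from Malat1 on the same strand. It was lower in KO. Its levels were 664, 725 and 712 CPM in KO replicates 1, 2 and 3, against 860, 848 and 994 CPM in WT replicates 1, 2 and 3. The genotypes did not overlap. The mean was 700.3 ± 32.4 CPM in KO and 900.4 ± 81.0 CPM in WT (SD, n = 3 each). The log2 fold change was -0.36 ± 0.08 (SE), with an adjusted p of 0.00649 in edgeR's quasi-likelihood test with Benjamini-Hochberg adjustment over 11504 genes. Of the 5 members with a tested difference, Neat1 was the one that passed. In the same test 9.67% of all genes passed and 4.58% passed as lower in KO. The members were chosen with earlier results of these data known, so this call may not be independent of that choice.

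The ratio of Malat1 to Neat1 counts was 38.5, 30.3 and 37.5 in KO replicates 1, 2 and 3 and 52.8, 46.2 and 37.1 in WT replicates 1, 2 and 3. It averaged 35.4 ± 4.47 in KO and 45.4 ± 7.86 in WT (SD, n = 3 each), and the genotypes overlapped.

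Kcnq1ot1 (ENSMUSG00000101609.2, chr7:143203458-143296549, minus strand) lies inside Kcnq1 on the opposite strand. Its levels were 362, 374 and 437 CPM in KO replicates 1, 2 and 3, against 376, 458 and 487 CPM in WT replicates 1, 2 and 3, so the genotypes overlapped. The mean was 391 ± 40.4 CPM in KO and 440.1 ± 57.6 CPM in WT (SD, n = 3 each). The log2 fold change of -0.17 ± 0.10 (SE; 95% interval -0.38 to 0.04) did not pass edgeR's test (adjusted p = 0.341). No source used here states the strand setting of the counting, so reads from intronic Kcnq1 RNA and from Kcnq1ot1 cannot be told apart.

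Gas5 (ENSMUSG00000053332.13, chr1:161034422-161038539, plus strand) was the most abundant of the snoRNA hosts. Its levels were 436, 481 and 449 CPM in KO replicates 1, 2 and 3, against 464, 438 and 485 CPM in WT replicates 1, 2 and 3. The values interleaved. The mean was 455 ± 23.0 CPM in KO and 462 ± 23.5 CPM in WT (SD, n = 3 each). The log2 fold change was -0.02 ± 0.08 (SE; 95% interval -0.19 to 0.14), with an adjusted p of 0.912 in edgeR's test. Zbtb37, which overlaps the start of Gas5 on the opposite strand, averaged 29.6 ± 12.6 CPM in KO and 28.5 ± 5.57 CPM in WT (SD, n = 3 each).

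Snhg1 (ENSMUSG00000108414.1, chr19:8723475-8726443, plus strand) had 86.0, 89.0 and 80.6 CPM in KO replicates 1, 2 and 3, against 61.7, 69.0 and 71.5 CPM in WT replicates 1, 2 and 3. Every KO value lay above every WT value, as for 13.7% of all tested genes. The mean was 85.2 ± 4.30 CPM in KO and 67.4 ± 5.09 CPM in WT (SD, n = 3 each). The log2 fold change of 0.34 ± 0.12 (SE; 95% interval 0.08 to 0.59) did not pass edgeR's test after adjustment over all genes (adjusted p = 0.0902). The ratio of Gas5 to Snhg1 counts averaged 5.34 ± 0.256 in KO and 6.88 ± 0.591 in WT (SD, n = 3 each), without overlap.

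Snhg12 (ENSMUSG00000086290.9, chr4:132308623-132311024, plus strand) was the least abundant member, with 115 to 177 counts per library. Its counts were 149, 165 and 162 in KO replicates 1, 2 and 3, against 177, 115 and 144 in WT replicates 1, 2 and 3. Scaled for library size, it averaged 16.1 ± 1.96 CPM in KO and 15.7 ± 2.15 CPM in WT (SD, n = 3 each), and the values overlapped. The log2 fold change was 0.03 ± 0.23 (SE; 95% interval -0.45 to 0.51), with an adjusted p of 0.964 in edgeR's test. Counting error was 7.52% to 9.33% of the count, and the coefficient of variation between replicates was 12.2% in KO and 13.7% in WT.

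**Figure D2:**
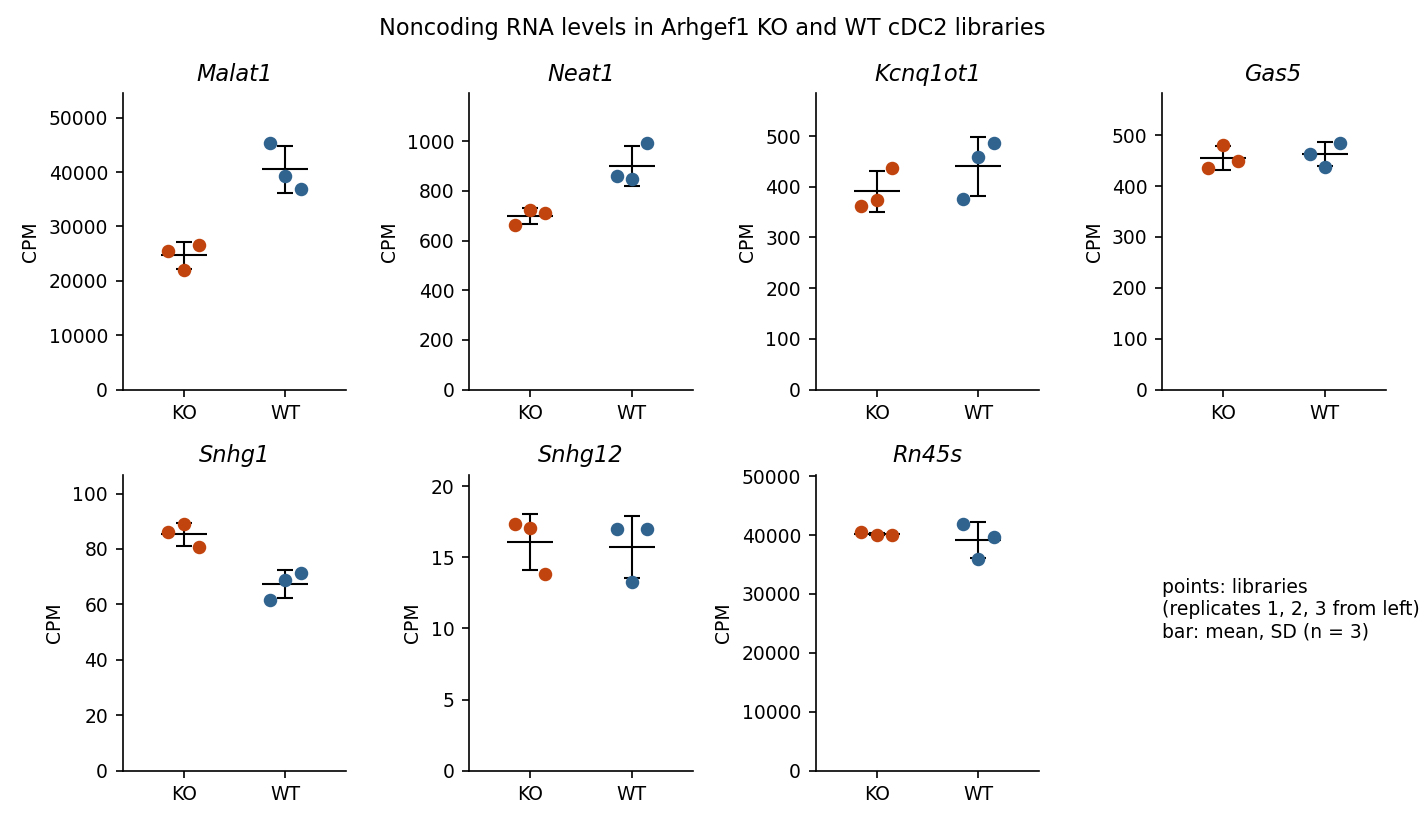
Level in CPM (vertical axis, from 0, with its own scale in each panel) of each of the 7 noncoding RNAs, KO left of WT; points are libraries, bars the mean and SD of 3. The genotypes do not overlap for Malat1 (24722 CPM in KO and 40494 in WT on average), Neat1 and Snhg1, and overlap for the other 4.

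Annotated snoRNA genes within the hosts number 9 in Gas5, 8 in Snhg1 and 4 in Snhg12. By their GENCODE names, 1, 1 and 3 of them were found with counts of their own. Any counted under another symbol would be missed. Snord47, the sequence from Gas5 shown above, had 41, 59 and 41 counts in KO replicates 1, 2 and 3, against 40, 20 and 24 in WT replicates 1, 2 and 3. Its log2 fold change of 0.67 ± 0.47 (SE) did not pass edgeR's test (adjusted p = 0.436). Snord22, within Snhg1, had a log2 fold change of 0.04 ± 0.32 (SE), and Snord99, within Snhg12, one of -0.58 ± 0.67 (SE). Snora44 and Snora61, H/ACA snoRNAs also within Snhg12, had -0.26 ± 0.58 and -0.79 ± 0.70 (SE), and none of the 5 passed. Reads of a snoRNA and of unspliced host RNA cannot be told apart here.

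Other snoRNA host genes were measured for comparison with Gas5, Snhg1 and Snhg12. Of 16 tested, none passed in either direction, against 9.67% of all tested genes. The median log2 fold change was 0.03, against 0.00 over all tested genes. Snhg4 had the smallest p of them, with 15.5 ± 2.98 CPM in KO and 8.65 ± 2.47 CPM in WT (SD, n = 3 each) and an adjusted p of 0.0725 in edgeR's test. Snhg3 had a log2 fold change of 0.51, Snhg8 one of -0.35 and Snhg15, listed under an older symbol, one of -0.57.

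The median log2 fold change of 16 other named long noncoding RNAs and small RNA host transcripts was -0.09. Of these, 2 were lower in KO and none higher, against 4.58% and 5.09% of all tested genes. Mir22hg, the host transcript of miR-22 (under its older symbol 2210403K04Rik), averaged 17.7 ± 2.06 CPM in KO and 29.3 ± 3.99 CPM in WT, a log2 fold change of -0.72 ± 0.20 (SE; adjusted p = 0.0259, edgeR). Peg13, an imprinted RNA, averaged 21.6 ± 7.09 CPM in KO and 34.8 ± 2.96 CPM in WT, a log2 fold change of -0.68 ± 0.21 (SE; adjusted p = 0.0493, edgeR). Ftx, from the X-inactivation centre, and Mirt1 had log2 fold changes of -0.34 and -0.61 and did not pass.

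All genes that RefSeq classes as lncRNA, a class assembled after the data were seen, gave a wider view that includes 6 of the members. Of 368 tested, 1 was higher and 22 were lower in KO, against 5.09% of all tested genes higher and 4.58% lower. In both directions together 6.25% were called, against 9.67% of all tested genes. The 22 include Neat1 and also Malat1, whose values were known when it was chosen. The median log2 fold change was -0.25. Of 10957 protein-coding genes, 580 were higher and 501 lower, with a median of 0.01. The called share depended on the filter. With at least 5 CPM in at least 3 libraries, 1 of 200 lncRNAs was higher and 25 were lower. That was 13% called, beside 1170 called of 9501 genes. Leaving out KO replicate 2 or WT replicate 2 left 8 lncRNAs lower in each case, WT replicate 1 left 11 and WT replicate 3 left 12; the median was between -0.28 and -0.19 over all 6 such fits. Without Malat1, lncRNAs took 1.46% to 1.77% of counts in KO libraries and 1.64% to 1.80% in WT libraries, which overlapped. Most of this share came from Xist, at 9622 ± 1364 CPM in KO and 10217 ± 525 CPM in WT (SD). The share of the remaining lncRNAs was not summed apart.

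**Figure D3:**
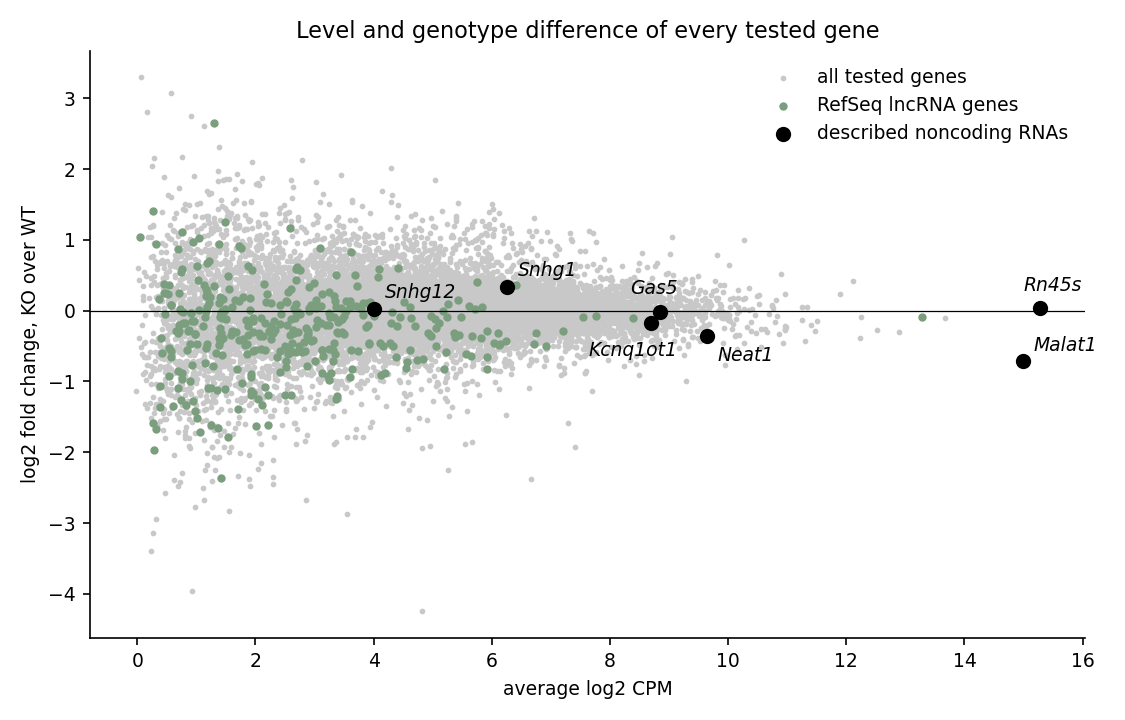
Log2 fold change of KO over WT (vertical axis) against average log2 CPM (horizontal axis) for 11504 tested genes in grey, RefSeq lncRNA genes in green and the 7 described RNAs in black. Rn45s and Malat1 stand at the right end, Rn45s at 0.04 and Malat1 at -0.71.

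The proteins that gather on Neat1 and around Malat1 were examined next. The median log2 fold change of 28 paraspeckle protein genes was 0.06. Of these, 1 was higher and none lower in KO, against 5.09% and 4.58% of all tested genes. That gene was Rbm14, which is needed for paraspeckle assembly, at 45.4 ± 0.364 CPM in KO and 29.6 ± 2.65 CPM in WT (adjusted p = 0.0156, edgeR). Nono, a core paraspeckle protein, had a log2 fold change of 0.31 ± 0.10 (SE) and did not pass (adjusted p = 0.0585, edgeR).

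Of 37 nuclear speckle protein genes, 2 were higher and 5 lower in KO, with a median log2 fold change of -0.05. Over all tested genes, 5.09% were higher and 4.58% lower. Clk1, a kinase that phosphorylates SR splicing factors, fell to 531 ± 7.23 CPM in KO, against 753 ± 7.52 CPM in WT (SD, n = 3 each). Its log2 fold change was -0.50 ± 0.07 (SE; adjusted p = 1.80e-04, edgeR). The SR protein gene Srsf5 and the speckle protein gene Pnisr, listed as Sfrs18, fell by 0.39 and 0.36 on the log2 scale. Srsf2, another SR protein gene, moved the other way, with 599.6 ± 60.3 CPM in KO and 415 ± 31.6 CPM in WT (log2 fold change 0.53 ± 0.09, adjusted p = 7.41e-04, edgeR).

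A list of 17 tested genes covered RNase P, tRNA 3′ processing enzymes, RNA methylation and binding of the MALAT1 triple helix. In it 1 gene was lower in KO, against 4.58% of all tested genes, with a median log2 fold change of 0.01. That gene was Elac1, a tRNA 3′ processing enzyme, at 62.3 ± 5.59 CPM in KO and 83.5 ± 0.512 CPM in WT (adjusted p = 0.0366, edgeR). Whether Elac1 acts on Malat1 was not tested. Mettl16, a methyltransferase that binds the triple helix of human MALAT1, had a log2 fold change of 0.43 ± 0.14 (SE) and did not pass (adjusted p = 0.0577, edgeR).

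The median log2 fold change of the 14 tested genes that neighbour Malat1 and Neat1 was 0.12. Of these, 1 was higher in KO and none lower, against 5.09% and 4.58% of all tested genes. That gene was Map3k11, a kinase of the JNK pathway, at 90.9 ± 0.885 CPM in KO and 69.2 ± 5.95 CPM in WT (adjusted p = 0.0432, edgeR). Of 18 genes listed around Kcnq1ot1, 13 were found by symbol and 7 were tested. Kcnq1 and Phlda2 were not found, and Cdkn1c did not pass the filter on low counts. Among the 7 tested, Cd81 was lower and none was higher. Cd81, a membrane tetraspanin, averaged 29.3 ± 10.1 CPM in KO and 63.8 ± 4.07 CPM in WT, a log2 fold change of -1.13 ± 0.19 (SE; adjusted p = 8.44e-04, edgeR).

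The genes that build snoRNA particles were described beside the host genes. Of 21 tested, 4 were higher in KO and none lower, with a median log2 fold change of 0.30. Over all tested genes, 5.09% were higher and 4.58% lower. Dkc1, the pseudouridine synthase of H/ACA particles, averaged 98.0 ± 7.27 CPM in KO and 57.0 ± 5.57 CPM in WT (log2 fold change 0.78 ± 0.13, adjusted p = 4.97e-04, edgeR). The box C/D core protein genes Nop56 and Nop58 and the assembly ATPase gene Ruvbl2 rose by 0.58, 0.44 and 0.51 on the log2 scale.

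Genes that make and process ribosomal RNA were described beside Rn45s. The median log2 fold change of 25 RNA polymerase I and rRNA transcription genes was 0.05. Among them 1 was higher, against 5.09% of all tested genes higher and 4.58% lower. That gene was Myc, a transcription factor that promotes ribosome production, at 100.2 ± 5.47 CPM in KO and 70.1 ± 6.03 CPM in WT (adjusted p = 0.00943, edgeR). Of 69 rRNA processing genes, 2 passed, Heatr1 and Nol10, both higher, and the median log2 fold change was 0.24. Of 80 ribosomal protein genes, 1 was higher and 4 lower, with a median of -0.13; Rps14 fell by 0.52 and Rps9 by 0.37 on the log2 scale.

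Spliced snoRNA host RNAs are targets of nonsense-mediated decay. Of 25 genes of that pathway, 2 were higher in KO and none lower, with a median log2 fold change of 0.08. Over all tested genes, 5.09% were higher and 4.58% lower. Gspt1, a translation release factor, rose by 0.49 and Smg5, which promotes decay of bound transcripts, by 0.51 on the log2 scale.

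The calls of these genes differed in how far they rested on single libraries. With each of the 6 libraries left out in turn, Clk1, Srsf2, Srsf5, Cd81, Dkc1 and Gspt1 passed edgeR's test every time. Myc was lost without WT replicate 2 (adjusted p = 0.0685) and Rps14 without WT replicate 3 (adjusted p = 0.0547). Nop56 and Pnisr (listed as Sfrs18) were lost without KO replicate 2 or WT replicate 1, with adjusted p up to 0.0670 and 0.0805, and Rbm14 without WT replicate 2 or 3, with adjusted p up to 0.0675. Nop58 was lost without KO replicate 2, WT replicate 1 or WT replicate 2, and Rps9 without KO replicate 3, WT replicate 1 or WT replicate 3, with adjusted p up to 0.141 and 0.103. Mir22hg (2210403K04Rik) and Smg5 were lost in 4 of the 6 fits, with adjusted p up to 0.138 and 0.0950. Peg13, Elac1, Heatr1, Nol10 and Ruvbl2 were lost in 5 of the 6, with adjusted p up to 0.195, 0.125, 0.179, 0.221 and 0.125. Map3k11 was lost in all 6, with adjusted p of 0.0718 to 0.201.

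**Figure D4:**
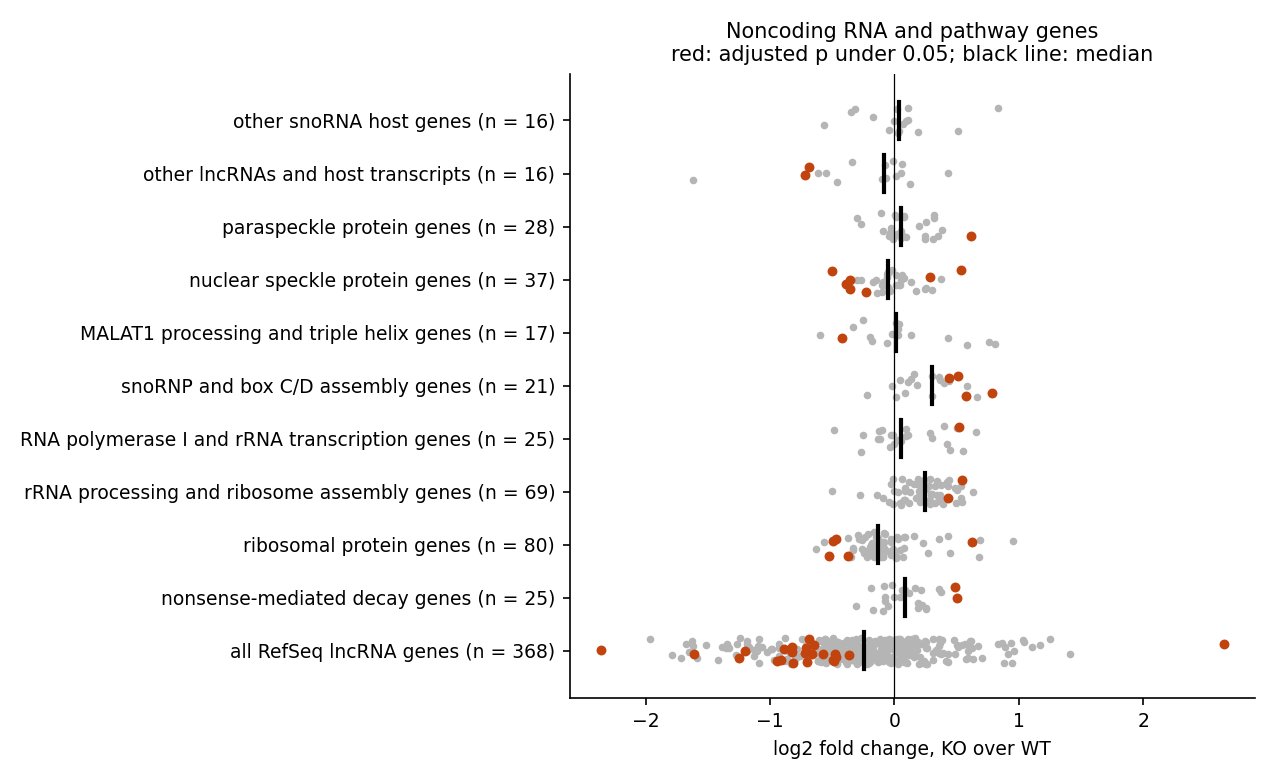
Log2 fold change of KO over WT (horizontal axis) for the tested genes of each list (grey points), with genes at an adjusted p under 0.05 in red and the median of the list as a black line. The lncRNA median lies at -0.25, and the snoRNA particle and rRNA processing medians at 0.30 and 0.24.

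The genes whose pattern over the 6 libraries was closest to a member were found by the root mean square distance between centred log2 CPM values. The search covered 4899 genes whose average log2 CPM reached 5. Genes with predicted or clone-type symbols, some of them lncRNAs, were left out and could not be named. For Malat1 they were Sema7a (distance 0.055), Ercc5 (0.056) and Gbp8 (0.080), against a median distance of 0.41. For Neat1 they were Fuca1 (0.031), Tra2a (0.049) and H2-Ab1 (0.051), against a median of 0.25. For Gas5 they included Zc3h7a (0.030) and Coro1b (0.035), against a median of 0.17. These libraries share lane and genotype, and the distances are a description. By selection, the nearest genes lie below the median distance. Those of Malat1 had log2 fold changes of -0.69 to -0.63, so they share its known difference between genotypes.

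**Figure D5:**
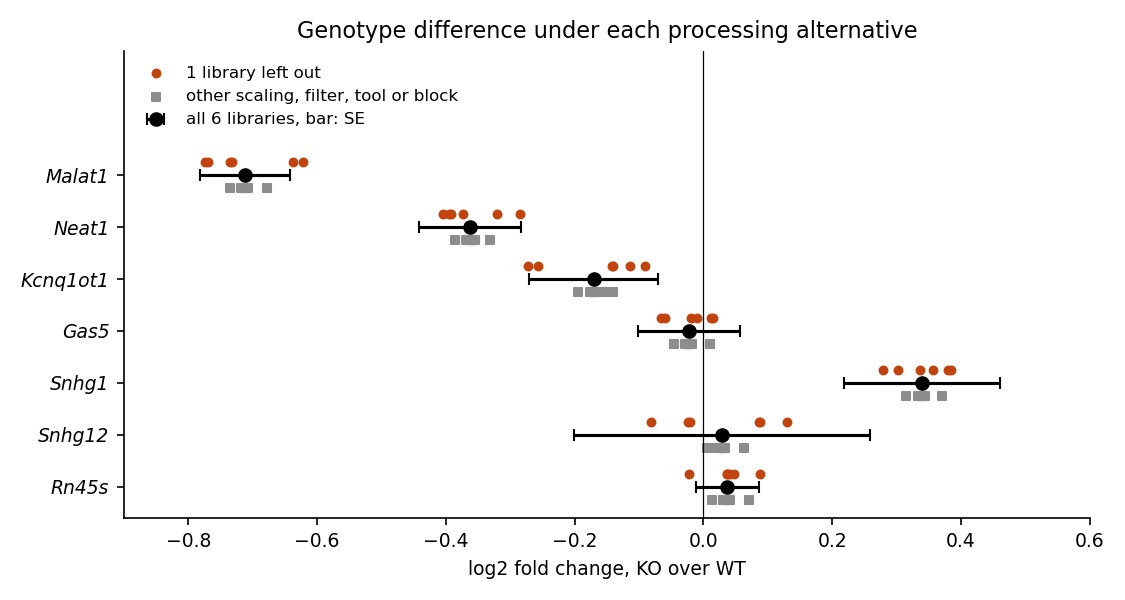
Log2 fold change of KO over WT (horizontal axis) of the 7 noncoding RNAs with all 6 libraries (black, bar SE), with 1 library left out (red) and under other scalings, filters, tools or the replicate block (grey). Malat1 runs from -0.77 to -0.62 and Neat1 from -0.40 to -0.29, while Gas5, Snhg12 and Rn45s have values on both sides of 0.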

How the data were processed

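RNA was sequenced in 6 libraries, 3 KO and 3 WT, grouped by the titles in the labels. The deposited values were raw counts per gene symbol, made with STAR and HTSeq on mm10, with DESeq2 also named, per the submitters' processing notes. Tool versions, annotation, strand setting and RNA selection were not given in the sources used here; any of these could change the counts of overlapping, antisense or repeated genes and of RNAs without a poly(A) tail.

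The test was that of edgeR 4.0.16 under R 4.3.3 (filterByExpr, TMM, quasi-likelihood test, genotype as the term, Benjamini-Hochberg adjustment, threshold 0.05). The words "higher", "lower", "rose" and "fell" refer to calls, except for Malat1 on its own, which carries none. Counts of calls over lncRNAs and over all genes include its row. SEs came from the fold change and F statistic. CPM uses TMM-scaled sizes. The procedure was tested on simulated data. Lists and class names were matched to RefSeq symbols, some through older symbols.

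The members and lists were chosen with earlier results of these data known. Named genes were the members, Arhgef1, up to 4 genes of smallest p per list and the 3 nearest patterns, not all of which are reported here; others named (Xist, snoRNAs, Zbtb37, marker genes) were chosen after their values were seen.

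Alternatives were DESeq2 1.42.0 and its size factors, limma-voom (limma 3.58.1), total counts, upper-quartile factors, leaving out Malat1 and Rn45s, no filter or a filter of 5 CPM in 3 libraries, the replicate block, leaving out each library, and the longest transcript as length.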

Additional observations from a re-analysis of the deposited data

How the results depend on the processing

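Malat1 stayed lower in KO under all 14 alternatives run (log2 fold change -0.77 to -0.62), and Neat1 stayed lower and past the threshold under all 15 (-0.40 to -0.29, adjusted p 4.33e-04 to 0.0471). Snhg1 stayed above 0 (0.28 to 0.38) and passed under none (adjusted p 0.0532 to 0.306), and Kcnq1ot1 stayed below 0 (-0.27 to -0.09) and passed under none. Gas5 changed sign to 0.010 with total counts in place of TMM, and its values with 1 library left out ran from -0.067 to 0.014. Snhg12 ran from -0.081 to 0.13 and Rn45s from -0.02 to 0.09 with 1 library left out. Nap1l4, near Kcnq1ot1, had a value of 0.11 with all libraries and ran from -0.038 (without KO replicate 2) to 0.22 (without KO replicate 1).

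With 1 library left out, the genes higher in KO numbered 310 to 583, against 586 with all, and those lower 264 to 489, against 527. Calls over the noncoding RNA and pathway lists numbered 10 to 23, against 27, and calls of RefSeq lncRNAs 0 to 2 higher and 8 to 22 lower. DESeq2 called 5 lncRNAs higher and 29 lower; these lncRNA alternatives were added after the data were seen. With the longest transcript as length, Gas5 averaged 179, Snhg1 28.0 and Snhg12 10.3 CPM per kilobase over all libraries. Fewer bases divide the same counts. Neat1 stayed at 38.5 CPM per kilobase, and the genotypes were not separated with this length. The replicate block called 945 genes, against 1113. Libraries with the same number correlated at 0.04, -0.03 and -0.03 in their deviations, against -0.03 to 0.06 for different numbers. The numbers thus showed no pairing, but so few libraries cannot exclude it. The block changed no call among the members. Map3k11 (adjusted p = 0.0621) and Elac1 (0.0517) no longer passed edgeR's test under the block. At 115 to 177 counts per library, the counting error of Snhg12 was 7.52% to 9.33%, against 0.145% to 0.217% for Malat1.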
